A study of Mus musculus with 15 samples.

Results

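Heat shock and chaperone genes were followed in mouse ear RNA as a check on acute tissue stress beside the immediate-early genes. The set holds 10 genes, Hspa1a, Hspa1b, Hspa8, Hspa5, Hsp90aa1, Hsph1, Hspb1, Dnaja1, Dnajb1 and Bag3, which were chosen by name and matched exactly to the gene symbols of the deposited tables. All 10 were found among the 21110 genes listed, and all 10 passed the expression filter in every comparison (1 FPKM or more in no fewer than 3 mice of the comparison). FPKM is a read count scaled to the length of the gene and to the mapped reads of the library, so levels of different genes are compared here per length.

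RNA was sequenced from the ears of 15 C57BL/6 mice, with 1 mouse in each library. The wild type gave 4 mice at 2 weeks and 3 at 10 weeks after birth, and Socs3 cKO gave 4 mice at each age. In Socs3 cKO, Socs3, a feedback inhibitor of cytokine signalling through STAT3, is deleted in keratin 5 expressing cells, which are the basal keratinocytes and what derives from them, so other cells of the ear keep the gene. RNA came from whole ear specimens while the labels name keratinocytes as the source, and the remaining wild type mice of the study were not analysed here.

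Chaperones bind unfolded proteins and help them to fold or to be degraded. The cytosolic HSP70 proteins, the stress-induced pair Hspa1a and Hspa1b and the constitutive Hspa8, work in cycles of ATP hydrolysis that are started by J-domain proteins (Dnaja1, Dnajb1) and reset by nucleotide exchange factors (Hsph1, Bag3). Hsp90aa1 is the inducible cytosolic HSP90, Hspb1 a small heat shock protein of the differentiating epidermis that holds unfolded clients without ATP, and Hspa5 (BiP) the HSP70 of the endoplasmic reticulum (ER). In cells under heat or protein damage the factor HSF1 binds heat shock elements, inverted repeats of the unit GAA, and switches on the cytosolic set, whereas Hspa5 is switched on by the unfolded protein response through ER stress elements.

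Promoters of 8 of the 10 genes were found in the RefSeq table of build GRCm38.p6, which covers 250 bases before and 50 bases from each start. Hspa8 and Hsp90aa1 were not matched. The first listed start of 5 genes is shown, picked with the changes of these genes known. Whether the elements relate to those changes was not tested. Capitals mark GAANNTTC or TTCNNGAA, a pair of heat shock units, or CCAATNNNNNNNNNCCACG, the ER stress element, searched on both strands. The windows are chr17:34972107-34972406 (minus strand) for Hspa1a, chr17:34959189-34959488 (minus strand) for Hspa1b, chr5:135887669-135887968 (plus strand) for Hspb1, chr8:83607925-83608224 (plus strand) for Dnajb1 and chr2:34771840-34772139 (plus strand) for Hspa5.
Hspa1a: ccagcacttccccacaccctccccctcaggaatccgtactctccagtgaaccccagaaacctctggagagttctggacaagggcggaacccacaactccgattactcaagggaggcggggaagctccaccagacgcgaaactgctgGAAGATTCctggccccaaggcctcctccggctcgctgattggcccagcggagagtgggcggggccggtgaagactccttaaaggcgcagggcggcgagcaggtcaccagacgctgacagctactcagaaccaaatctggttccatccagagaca
Hspa1b: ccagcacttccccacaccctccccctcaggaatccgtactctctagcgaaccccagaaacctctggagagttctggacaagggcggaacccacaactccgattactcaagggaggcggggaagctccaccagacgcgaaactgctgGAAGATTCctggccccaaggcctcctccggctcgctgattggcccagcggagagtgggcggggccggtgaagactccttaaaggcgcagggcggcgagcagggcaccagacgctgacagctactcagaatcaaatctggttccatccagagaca
Hspb1: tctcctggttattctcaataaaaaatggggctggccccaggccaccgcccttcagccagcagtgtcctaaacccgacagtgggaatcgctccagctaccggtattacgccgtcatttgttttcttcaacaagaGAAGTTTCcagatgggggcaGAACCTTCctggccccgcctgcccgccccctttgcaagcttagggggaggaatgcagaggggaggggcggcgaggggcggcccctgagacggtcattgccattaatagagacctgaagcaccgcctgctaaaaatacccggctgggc
Dnajb1: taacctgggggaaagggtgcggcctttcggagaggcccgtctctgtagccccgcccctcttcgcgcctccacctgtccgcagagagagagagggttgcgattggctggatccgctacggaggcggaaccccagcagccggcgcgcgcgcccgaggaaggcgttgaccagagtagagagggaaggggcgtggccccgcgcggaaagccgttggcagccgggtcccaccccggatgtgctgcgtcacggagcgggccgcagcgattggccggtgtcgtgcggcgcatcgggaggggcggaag
Hspa5: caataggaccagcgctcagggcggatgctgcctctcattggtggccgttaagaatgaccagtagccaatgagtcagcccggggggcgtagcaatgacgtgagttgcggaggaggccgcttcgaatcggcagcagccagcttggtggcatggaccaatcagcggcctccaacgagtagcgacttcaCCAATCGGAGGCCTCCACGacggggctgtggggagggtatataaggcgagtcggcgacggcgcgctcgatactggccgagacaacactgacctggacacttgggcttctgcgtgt

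The Hspa1a and Hspa1b windows differed at 4 of 300 bases (98.7% identity) and held the same GAAGATTC, whose first base lies at -104 from the start. Hspb1 held GAAGTTTC at -117 and GAACCTTC at -97, Dnaja1 held GAAAATTC at -124 of its first start, and Bag3 held GAAGTTTC at 43 after the start. Hsph1 held 1 GAANNTTC and 2 TTCNNGAA, of which GAAAGTTC and TTCTGGAA overlap. No pair was found in either window of Dnajb1. GAANNTTC was present in 7.86% of all 32817 windows, TTCNNGAA in 8.51% and either in 15.1%. The ER stress element of Hspa5, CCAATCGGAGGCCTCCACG at -65, matched a pattern held by 0.119% of windows. These matches describe letters only and do not show that a factor binds.

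The genes lie on 8 chromosomes of mm9, the build to which the authors aligned the reads, and differ in how uniquely reads of their transcripts can be placed. Hspa1a (chromosome 17, 35106144 to 35109069) and Hspa1b (chromosome 17, 35093381 to 35096183) are neighbouring genes with a single exon each. Of the words of 32 bases in their exons, 65.9% and 68.2% occurred more than once in the genome, mostly in each other, so the split of reads between them is uncertain. The share was 64.5% for Hspb1 (chromosome 5, 136363789 to 136365433), 61.9% for Hsp90aa1 (chromosome 12, 111928815 to 111940938) and 43.1% for Hspa8 (chromosome 9, 40609067 to 40613283). It was 18.9% for Dnaja1 (chromosome 4, 40669183 to 40684182), 1.53% for Dnajb1 (chromosome 8, 86132074 to 86135801) and 0.0308% for Hsph1 (chromosome 5, 150416862 to 150438951). It was 0 for Hspa5 (chromosome 2, 34627490 to 34632051) and for Bag3 (chromosome 7, 135667097 to 135690491).

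The libraries were not alike, and several of their properties moved with the groups. Values of 0 were listed for 1414 to 3176 genes in 10-week wild type mice and for 4044 to 4423 genes in the other mice. At 10 weeks Actb was at 135 to 276 FPKM in wild type mice against 440.0 to 492 FPKM in Socs3 cKO. The slope of log2(FPKM + 0.1) on the GC content of the gene, per 10 percentage points, was 0.43 to 0.48 in 2-week wild type mice, 0.07 to 0.35 in 10-week wild type mice and -0.26 to -0.09 in 10-week Socs3 cKO mice. In Socs3 cKO at 2 weeks replicate 1 stood apart, with a slope of -1.20 against -0.18 to -0.13 in the other 3. The labels number the libraries in 1 block of numbers per group, except for 1 wild type mouse of 2 weeks, so a batch of libraries and a group cannot be told apart. Depth is unknown, since the files give no counts. All 6 keratinocyte markers were at 1 FPKM or more in every mouse, beside markers of fibroblasts, muscle and leukocytes. At 2 weeks Socs3 itself was at 9.71 to 10.3 FPKM in wild type mice against 1.25 to 12.6 in Socs3 cKO, whereas at 10 weeks it was at 2.02 to 4.81 against 29.8 to 47.7. These values cover the whole gene and do not separate the deleted part, so they do not check the labels.

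In the wild type at 2 weeks the constitutive Hspa8 was the most abundant of the set, at 512 ± 26.6 FPKM (SD, n = 4), followed by Hspb1 at 389 ± 26.4 and Hspa5 at 179.8 ± 16.4. Hsp90aa1 (59.2 ± 5.61) and Hspa1b (53.1 ± 1.06) were neighbours whose order was not kept in every mouse. Hspa1a (39.2 ± 0.480), Dnajb1 (34.4 ± 0.328), Bag3 (27.9 ± 2.98) and Dnaja1 (24.4 ± 1.92) came next, and Hsph1 was lowest at 10.7 ± 1.42. Bag3 and Dnaja1 also overlapped. The labels name no heat treatment or injury of these mice. Together the 10 genes took 0.281% to 0.314% of the summed FPKM in 2-week wild type mice, 0.229% to 0.274% in 2-week Socs3 cKO mice, 0.268% to 0.306% in 10-week Socs3 cKO mice and only 0.124% to 0.188% in 10-week wild type mice. The share of the 10-week wild type did not overlap with any other group.

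**Figure D1:**
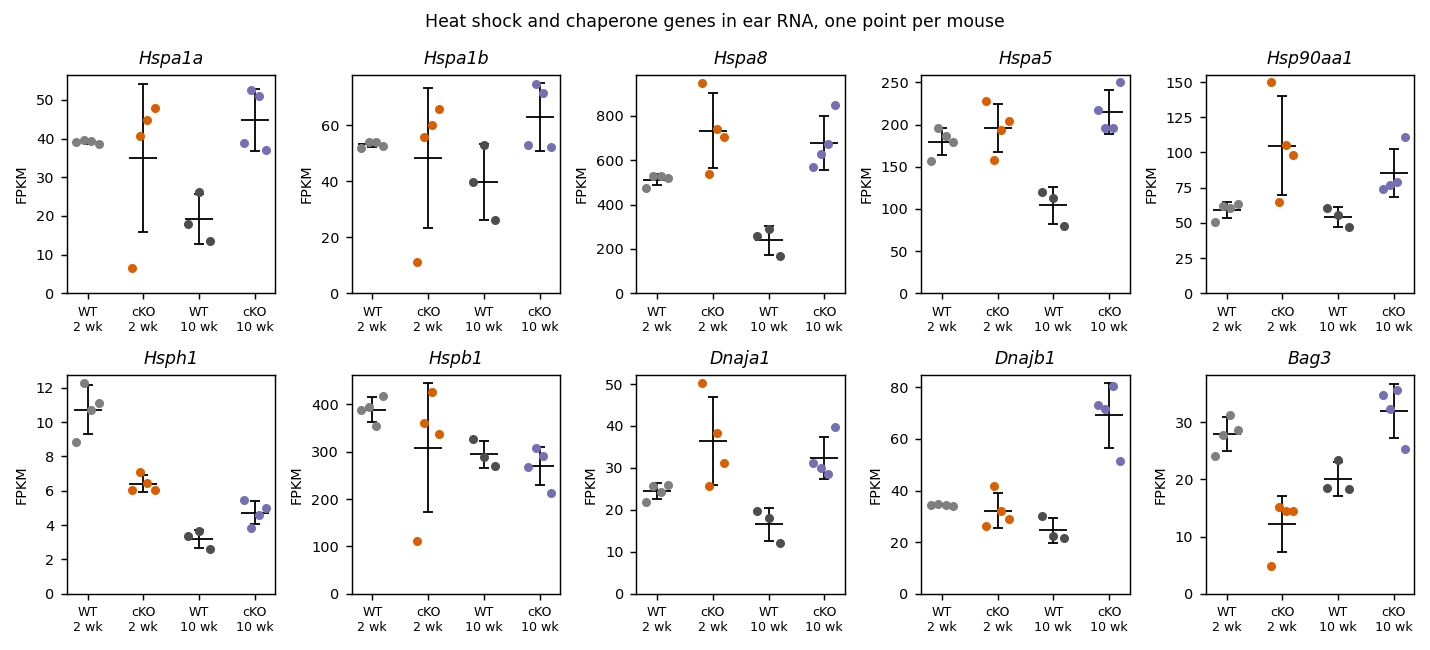
FPKM (vertical axes, linear, from 0) of each of the 10 genes in each mouse, grouped by genotype and age. Points are mice in replicate order from left to right, and lines and bars give the mean and SD. Hspa8, Hspa5 and Dnajb1 were higher in every Socs3 cKO mouse than in every wild type mouse at 10 weeks, and the lowest orange point of Hspa1a, Hspa1b, Hspb1 and Bag3 is Socs3 cKO replicate 1.

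The first comparison asked whether the chaperone genes differed when Socs3 had been deleted, at 2 weeks. Of the 10 genes, 1 rose and 2 fell at an adjusted p below 0.05 (limma with Benjamini-Hochberg adjustment over 13524 genes), against 47.9% of all tested genes called in either direction. None met the study's threshold for a DEG (adjusted p below 0.01 and log2 fold change of at least 1 in size), which 14.4% of all genes met. At an unadjusted p below 0.05 the count was 5. The median log2 fold change was -0.27 over the 10 genes and -0.21 over all genes, so values are also given relative to that of all genes. The 3 genes called were Hsp90aa1, Hsph1 and Bag3, and the stress-induced HSP70 pair was not among them. The count was 1 without wild type replicate 3 and 5 without Socs3 cKO replicate 2. Calls over all genes moved too, from 6479 of 13524 to 4090 of 13437 and to 8036 of 13426.

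Hsp90aa1, the inducible cytosolic HSP90, was at 51.0, 61.9, 60.4 and 63.5 FPKM in wild type mice and at 150.2, 64.6, 106 and 98.5 FPKM in Socs3 cKO. The groups did not overlap, although Socs3 cKO replicate 2 lay just above the wild type and replicate 1 far above it. Hsp90aa1 rose 1.77-fold in mean FPKM (log2 fold change 0.76, SE 0.24, adjusted p = 0.0305 in limma; 0.97 above the median of all genes). Its constitutive paralogue Hsp90ab1 had a log2 fold change of -0.44 (adjusted p = 0.0832 in limma). The ratio of the paralogues within a mouse was 0.108 to 0.125 in wild type mice against 0.134 to 0.562 in Socs3 cKO. With each library freed of its trend with length and GC content, Hsp90aa1 was at 0.57 (adjusted p = 0.0586 in limma).

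The nucleotide exchange factors went the other way. Hsph1, the HSP110 that recharges HSP70, was at 8.84, 12.3, 10.7 and 11.1 FPKM in wild type mice and at 6.07, 7.09, 6.47 and 6.05 in Socs3 cKO. Every Socs3 cKO mouse lay below every wild type mouse, and the 4 were close to one another. Hsph1 fell by 0.73 on the log2 scale (SE 0.15, adjusted p = 0.00722 in limma). With quantile normalization its adjusted p was 0.0975.

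Bag3, which links HSP70 to small heat shock proteins and to selective autophagy, was at 24.0, 27.8, 31.2 and 28.6 FPKM in wild type mice and at 4.91, 15.3, 14.4 and 14.4 in Socs3 cKO. Again the groups did not overlap, with replicate 1 lowest and the other 3 Socs3 cKO mice nearly equal. Bag3 fell by 1.31 on the log2 scale (SE 0.35, adjusted p = 0.0183 in limma), a 0.439-fold level in mean FPKM. Without replicate 1 the log2 fold change was -0.92 (adjusted p = 0.000161), and after removal of the length and GC trend it was -0.37 (adjusted p = 0.0184).

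The HSP70 pair depended on 1 mouse. Hspa1a was at 39.0, 39.7, 39.5 and 38.6 FPKM in wild type mice, a very narrow range, and at 6.59, 40.7, 44.7 and 48.0 in Socs3 cKO. Hspa1b was at 51.9, 54.1, 53.9 and 52.5 FPKM and at 11.3, 55.7, 60.1 and 65.8. In both genes Socs3 cKO replicates 2 to 4 lay above every wild type mouse and replicate 1 far below. The log2 fold changes were -0.50 (SE 0.58, adjusted p = 0.48) and -0.42 (SE 0.52, adjusted p = 0.511) in limma. Without replicate 1 they were 0.18 (adjusted p = 0.094) and 0.18 (adjusted p = 0.0883). After removal of the length and GC trend they were 0.82 (adjusted p = 0.00883) and 0.76 (adjusted p = 0.00732), so the direction turned with that mouse and with the GC trend.

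The small heat shock protein gene Hspb1 also had replicate 1 of Socs3 cKO as its lowest mouse. It was at 388, 396, 354 and 418 FPKM in wild type mice and at 111.3, 361, 426 and 337 in Socs3 cKO, with replicate 2 inside the wild type range, replicate 3 above it and replicates 1 and 4 below it (log2 fold change -0.49, SE 0.39, adjusted p = 0.301 in limma). Hspa8, the constitutive HSP70, was at 473, 529, 527 and 521 FPKM in wild type mice and at 946, 537, 740.1 and 705 in Socs3 cKO. Here every Socs3 cKO mouse was higher and replicate 1 was the highest (log2 fold change 0.49, SE 0.18, adjusted p = 0.0555). Quantile normalization turned Hspa8 to -0.26 (adjusted p = 0.0362 in limma), whereas with the length and GC trend removed it was at 0.78 (adjusted p = 0.0283).

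The ER chaperone and the J-domain genes were not called at 2 weeks. Hspa5 was at 157, 196, 186 and 179.7 FPKM in wild type mice and at 228, 158.5, 193 and 204 in Socs3 cKO, with the groups overlapping (log2 fold change 0.12, SE 0.15, adjusted p = 0.526 in limma). Dnaja1, which brings clients to Hspa8, was at 21.8, 25.7, 24.2 and 26.0 FPKM and at 50.3, 25.8, 38.4 and 31.3. Socs3 cKO replicate 2 lay inside the wild type range and replicate 1 was highest (log2 fold change 0.54, SE 0.21, adjusted p = 0.0594). Dnaja1 was called with quantile normalization (0.56, adjusted p = 0.0351 in limma) and with all 4 groups in one fit (adjusted p = 0.0405). Dnajb1, the J-protein of the stress-induced HSP70, was at 34.2, 34.8, 34.4 and 34.1 FPKM and at 26.3, 41.7, 32.0 and 28.8. Its wild type mice were nearly equal, with Socs3 cKO mice on either side (log2 fold change -0.12, SE 0.16, adjusted p = 0.545). With the length and GC trend removed Dnajb1 turned to 0.43 and was called (adjusted p = 0.04 in limma).

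The deviation of Socs3 cKO replicate 1 from the wild type mean differed between genes of low and high GC content. GC content ran from 41.2% in Dnaja1 and 43.7% in Hsp90aa1 to 59.2% in Hspa1a and 61.7% in Hspb1. In this mouse the deviation on the log2 scale was 1.04 for Dnaja1 and 1.35 for Hsp90aa1, but -2.48 for Bag3, -2.23 for Hspa1b, -2.55 for Hspa1a and -1.80 for Hspb1. The genes between these did not follow in order, with Hspa5 (47.3% GC) at 0.35, Hsph1 (47.4%) at -0.80, Hspa8 (51.2%) at 0.89 and Dnajb1 (54.0%) at -0.38. In the other 3 mice Hspa1a was at 0.05 to 0.30 and Bag3 at -0.95 to -0.85. What set this library apart was not tested.

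**Figure D2:**
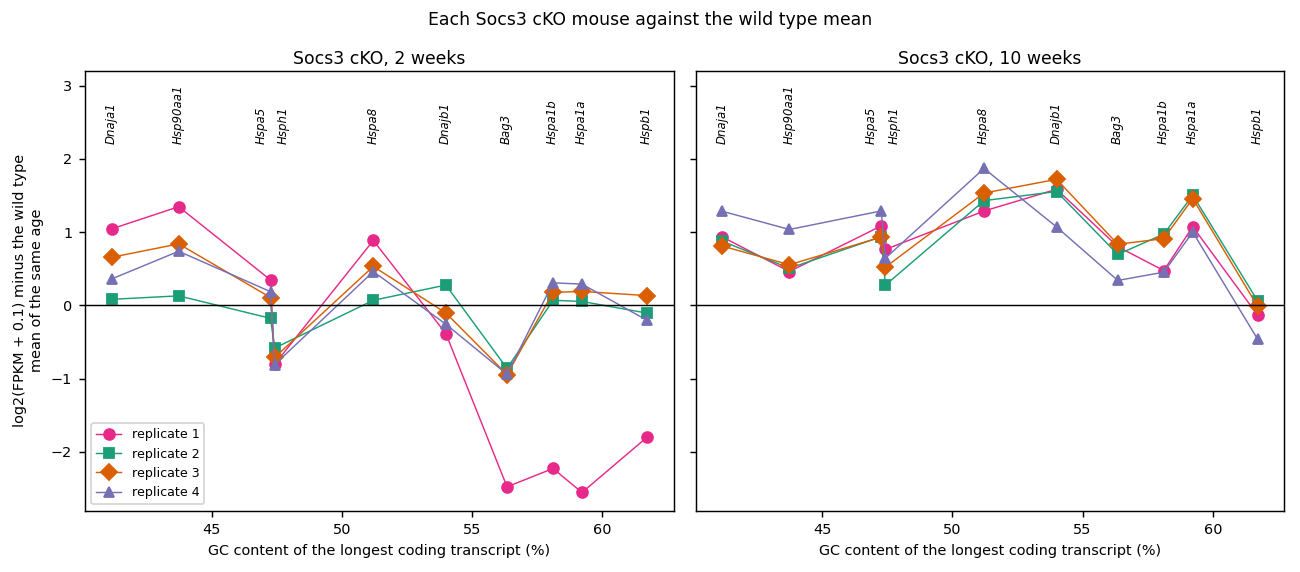
Deviation of each Socs3 cKO mouse from the wild type mean of the same age, on log2(FPKM + 0.1), against the GC content of the longest coding transcript of each gene (percent). Lines join the 10 genes of 1 mouse. At 2 weeks replicate 1 runs from 1.04 in Dnaja1 down to -2.55 in Hspa1a, whereas at 10 weeks the lowest of all points is -0.46, for Hspb1 in replicate 4.

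At 10 weeks the picture was different, and most of the set was higher in Socs3 cKO. Of the 10 genes, 7 rose and none fell at an adjusted p below 0.05 (limma with Benjamini-Hochberg adjustment over 13105 genes), where 28.7% of all genes were called higher. DEGs numbered 4 (Hspa1a, Hspa8, Hspa5 and Dnajb1), against 12.5% of all genes that were higher DEGs. Every Socs3 cKO mouse lay above every wild type mouse in 8 of the 10 genes and in 31.2% of all genes. The median log2 fold change was 0.84 over the set and 0.31 over all genes. Exact permutation tests of 3 mice against 4 cannot give a 2-sided p below 0.0571, which is the value of each of these 8 genes. Without wild type replicate 3, DEGs numbered 1 and genes called 5, with Bag3 and Hsp90aa1 no longer called. Counts over all genes and both directions fell too, from 1957 to 745 DEGs and from 4931 to 2888 called. The wild type mice of this comparison are those with fewer values of 0 and less Actb, and the part of that in the result was not tested.

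Of the HSP70 genes, Hspa8, Hspa5 and Hspa1a rose, and Hspa1b did not pass the test. Hspa8 was at 259, 289.9 and 166 FPKM in wild type mice and at 567, 625, 672 and 848 in Socs3 cKO. The lowest Socs3 cKO mouse was well above the highest wild type mouse. Hspa8 rose 2.84-fold in mean FPKM (log2 fold change 1.53, SE 0.25, adjusted p = 0.00203 in limma; 1.22 above the median of all genes). It is by far the most abundant of the rising genes, so in FPKM its difference was the largest of the set.

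Hspa5, the ER chaperone whose promoter holds the ER stress element shown above, was at 119.7, 113 and 79.7 FPKM in wild type mice and at 218, 196, 196 and 251 in Socs3 cKO. The groups were apart, and replicate 3 of the wild type was the lowest. Hspa5 rose 2.07-fold (log2 fold change 1.06, SE 0.20, adjusted p = 0.00368 in limma; 0.75 above the median of all genes).

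Hspa1a was at 17.9, 26.1 and 13.4 FPKM in wild type mice and at 39.0, 52.6, 50.9 and 37.0 in Socs3 cKO. Its near-copy Hspa1b was at 39.7, 53.0 and 26.1 FPKM and at 52.9, 74.7, 71.6 and 52.1. Hspa1a did not overlap between the groups, while for Hspa1b wild type replicate 2 lay inside the Socs3 cKO range. Hspa1a rose 2.34-fold (log2 fold change 1.26, SE 0.24, adjusted p = 0.00419 in limma), and Hspa1b had a log2 fold change of 0.70 (SE 0.25, adjusted p = 0.0518). With all 4 groups in one fit, which adds the spread of the 2-week Socs3 cKO mice, Hspa1a was not called (adjusted p = 0.0722).

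The J-domain genes rose as well. Dnajb1, which starts the ATP cycle of the stress-induced HSP70, was at 30.3, 22.2 and 21.5 FPKM in wild type mice and at 73.3, 71.7, 80.5 and 51.2 in Socs3 cKO. The gap between the groups was wide, although Socs3 cKO replicate 4 was lower than the other 3. Dnajb1 rose 2.81-fold (log2 fold change 1.48, SE 0.20, adjusted p = 0.00102 in limma), and it had the smallest adjusted p of the set. It was at 1.22 to 1.28 with median-of-ratios scaling, quantile normalization or removal of the length and GC trend. Dnaja1 was at 19.6, 18.0 and 12.2 FPKM and at 31.1, 29.9, 28.6 and 39.8, with no overlap (log2 fold change 0.98, SE 0.21, adjusted p = 0.00663 in limma). Removal of the length and GC trend brought Dnaja1 to 0.11 (adjusted p = 0.651 in limma).

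Bag3 was at 18.4, 23.4 and 18.3 FPKM in wild type mice and at 34.8, 32.3, 35.6 and 25.3 in Socs3 cKO, the reverse of the order seen at 2 weeks. The groups did not overlap, with Socs3 cKO replicate 4 close to wild type replicate 2. Bag3 rose by 0.67 on the log2 scale (SE 0.18, adjusted p = 0.0183 in limma), but was not called with median-of-ratios scaling (0.41, adjusted p = 0.0666) or quantile normalization (0.39, adjusted p = 0.0924). Hsp90aa1 was at 60.5, 55.4 and 46.8 FPKM and at 74.3, 76.7, 79.3 and 110.7, also without overlap (log2 fold change 0.64, SE 0.19, adjusted p = 0.0255 in limma). After removal of the length and GC trend it was at 0.03 (adjusted p = 0.886).

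The 3 genes not called at 10 weeks were Hspa1b, Hsph1 and Hspb1. Hsph1 was at 3.37, 3.63 and 2.59 FPKM in wild type mice and at 5.44, 3.86, 4.59 and 5.00 in Socs3 cKO (log2 fold change 0.55, SE 0.22, adjusted p = 0.0712 in limma). The mice did not overlap, but with the length and GC trend removed the value was -0.09. Hspb1 was at 326, 289 and 269.6 FPKM and at 268, 307, 291 and 213.5, so the groups overlapped (log2 fold change -0.14, SE 0.19, adjusted p = 0.596).

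**Figure D3:**
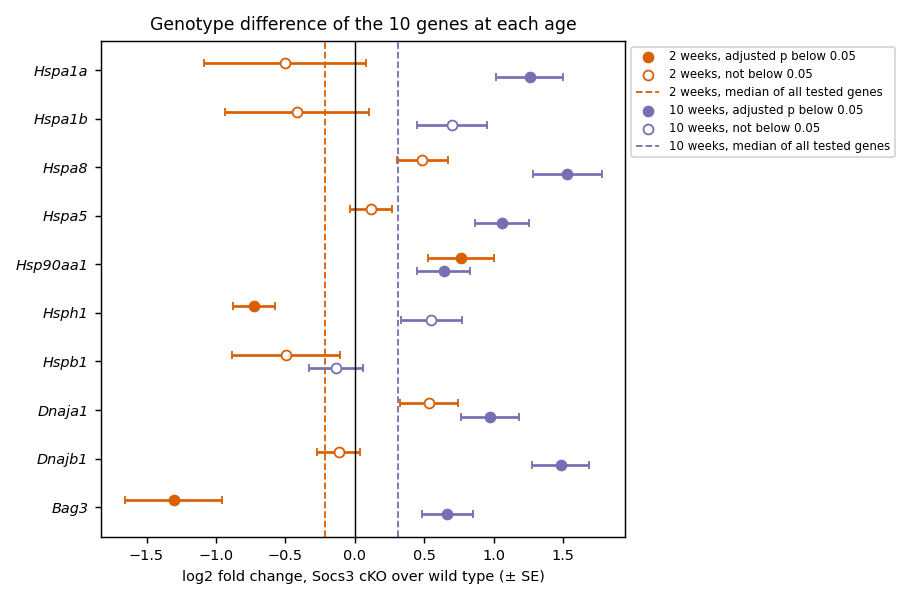
Log2 fold change of Socs3 cKO over the wild type with its SE (horizontal axis) for each of the 10 genes at 2 weeks (orange) and 10 weeks (purple). Filled points have an adjusted p below 0.05, and dashed lines mark the median of all tested genes, -0.21 and 0.31. At 10 weeks 9 of 10 points lie above 0, and at 2 weeks 4 of 10 do.

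Changes with age were compared within each genotype. These comparisons use the same mice as the comparisons of genotype, so they are not independent of them. In the wild type, 5 of 10 genes were lower at 10 than at 2 weeks at an adjusted p below 0.05 (37.6% of 13937 genes were called lower), and 2 of them, Hsph1 and Hspa8, were DEGs (19.4% of all genes were lower DEGs). Every 10-week mouse lay below every 2-week mouse in 8 of the genes, against 49.5% of all genes, and the median log2 fold change was -0.54 beside -0.44 over all genes. Hsph1 fell by 1.72 (SE 0.18, adjusted p = 6.8e-06 in limma), Hspa8 by 1.14 (adjusted p = 0.00103) and Hspa5 by 0.81 (adjusted p = 0.00215). Dnaja1 fell by 0.58 (adjusted p = 0.0423) and Dnajb1 by 0.50 (adjusted p = 0.043), but these J-domain genes were not called with median-of-ratios scaling, which gave -0.19 and -0.10. Relative to the median of all genes Hsph1 was at -1.28.

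In Socs3 cKO, 2 of 10 genes, Dnajb1 and Bag3, were higher at 10 than at 2 weeks, and both were DEGs. Over all genes 5.29% were called higher and 2.01% were higher DEGs. Dnajb1 rose by 1.10 on the log2 scale (SE 0.18, adjusted p = 0.00124 in limma), from a mean of 32.2 FPKM to one of 69.2 FPKM. Bag3 rose by 1.50 (SE 0.29, adjusted p = 0.00469). In both genes every 10-week mouse was above every 2-week mouse, but the share of all genes for which this held is not given. The 2-week group of Bag3 includes replicate 1, its lowest mouse at 4.91 FPKM. Omitting single mice gave log2 fold changes of 1.11 to 1.64 for Bag3 and of 1.01 to 1.24 for Dnajb1. The other 8 genes had log2 fold changes of -0.44 for Hsph1 to 0.68 for Hspa1a, and none passed the test.

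Whether the signed genotype difference changed between 2 and 10 weeks was tested as an interaction. It was more positive at 10 weeks for 5 of 10 genes at an adjusted p below 0.05, against 34.6% of all genes, and 3 of these met both DEG thresholds, against 18.0%. The median interaction was 1.08 over the set and 0.55 over all genes. Bag3 had the largest, 1.97 (SE 0.43, adjusted p = 0.00287 in limma), and it fell at 2 weeks and rose at 10 weeks. The number of members that met both thresholds was 6 without Socs3 cKO replicate 1 of 2 weeks and 5 without wild type replicate 2 of 10 weeks. Over all genes and both directions that number went from 3417 of 13937 to 4111 of 13909 and to 3806 of 13844. Dnajb1 followed at 1.60 (SE 0.26, adjusted p = 0.000566) and Hsph1 at 1.28 (SE 0.24, adjusted p = 0.00141). Hspa8 differed by 1.04 (adjusted p = 0.0135) and Hspa5 by 0.94 (adjusted p = 0.00678), and neither was called with median-of-ratios scaling (0.57 and 0.47). Hspa1a was at 1.76 (SE 0.70, adjusted p = 0.051) and without Socs3 cKO replicate 1 of 2 weeks at 1.08. Hsp90aa1, the gene that rose at both ages, had an interaction of -0.12 (adjusted p = 0.765).

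Ratios inside a mouse do not depend on the scaling of the library, but a trend with GC content inside a library can change them. GC content was 59.2% in Hspa1a, 58.1% in Hspa1b, 51.2% in Hspa8 and 47.3% in Hspa5, and the GC slopes differed between groups. The part of the GC trend in these ratios was not tested. Hspa1b over Hspa1a was 1.33 to 1.37 in 2-week wild type mice and 1.36 to 1.42 in 10-week Socs3 cKO mice. It reached 1.94 to 2.21 in 10-week wild type mice, and 1.71 in Socs3 cKO replicate 1 of 2 weeks against 1.34 to 1.38 in the other 3 mice. The exons share most of their sequence, so a change in this ratio and a different split of shared reads cannot be told apart. The stress-induced pair over the constitutive Hspa8 was, at 2 weeks, 0.175 to 0.192 in wild type mice against 0.0189 to 0.1795 in Socs3 cKO. This became 0.222 to 0.273 against 0.105 to 0.204 at 10 weeks. The ER chaperone Hspa5 over Hspa8 was 0.333 to 0.371 against 0.241 to 0.295 at 2 weeks, and at 10 weeks it was 0.389 to 0.479 against 0.291 to 0.384. At both ages both ratios were lower in Socs3 cKO on average. Hspa5 over Hspa8 did not overlap between genotypes at either age, and the stress-induced pair over Hspa8 did not at 10 weeks.

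**Figure D4:**
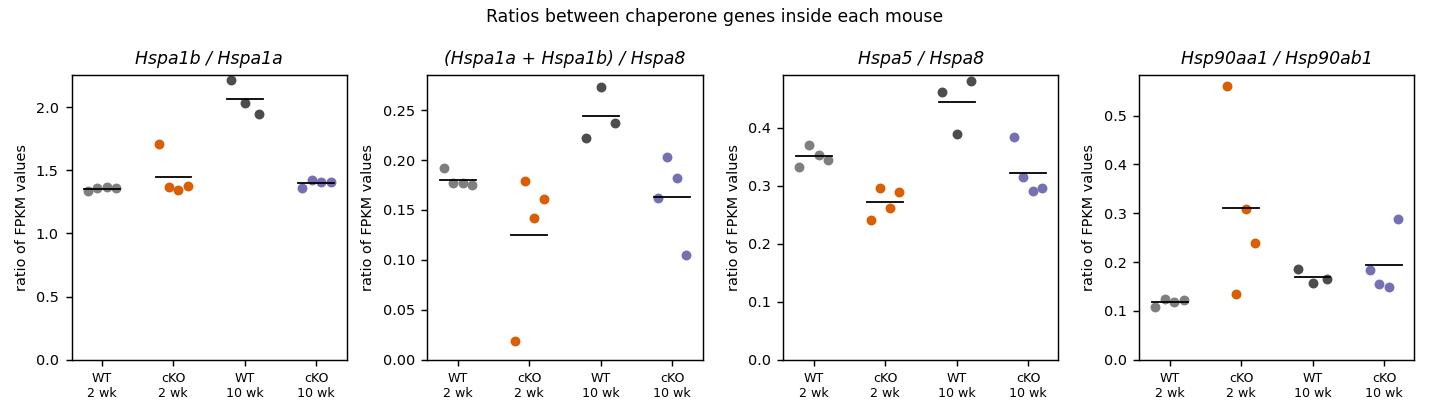
Ratios of FPKM between chaperone genes in each mouse (vertical axes from 0), by genotype and age, with the group mean as a line. The 3 wild type mice at 10 weeks stand above the other mice in Hspa1b over Hspa1a, and Socs3 cKO replicate 1 of 2 weeks is the lowest point of the HSP70 ratio and the highest of Hsp90aa1 over Hsp90ab1.

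Over the 15 mice the set moved in more than 1 pattern. Pearson's r of log2(FPKM + 0.1) was 0.96 between Hspa8 and Hspa5, 0.95 between Hspa8 and Dnaja1 and 0.92 between Dnaja1 and Hsp90aa1. It was 0.97 between Hspa1a and Hspa1b, 0.76 between Hspa1b and Hspb1 and 0.76 between Hspa1b and Bag3, but 0.10 between Hspa1b and Hspa8. Of 13936 genes compared, those most like Hspa1b were Fam83f (0.97), Hspa1a (0.97), Zxdb (0.96), C77080 (0.96) and Cyp26b1 (0.96). Those most like Hspa5 were Ctsc (0.96), Enpp3 (0.96), Hspa8 (0.96), Tpm4 (0.95) and Ube2j1 (0.95). The GC content was 50.8% to 60.7% in the first list and 43.9% to 51.2% in the second. These are descriptions over 15 mice that share group, library and GC trend, and no p is given.

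The other HSP70, HSP90, J-domain and nucleotide exchange factor lists were mixed at 10 weeks. Over all genes 28.7% were called higher in this comparison, and the median log2 fold change was 0.31. In either direction 4931 of 13105 genes were called, 3757 of them higher. Of 9 other HSP70 and HSP110 genes, 4 rose and none fell (median 0.63), among them Hspa4l (1.18, adjusted p = 0.00564 in limma), Hspa1l (1.09, adjusted p = 0.0321) and Hspa13 (1.08, adjusted p = 0.0117). Of 13 genes for HSP90 and its co-chaperones, 4 rose and 2 fell (median 0.26). St13, which bridges HSP70 and HSP90, rose by 1.38 (adjusted p = 0.00241), Unc45a, a myosin chaperone, rose by 1.01 (adjusted p = 0.0124), and Stub1, the ubiquitin ligase CHIP, fell by 0.88 (adjusted p = 0.00306). Of 10 other J-domain genes 3 rose (median 0.28), namely Dnajc5 (2.25, adjusted p = 0.00425), Dnajb4 (1.85, adjusted p = 0.000344) and Dnajb6 (0.52, adjusted p = 0.036). Dnajb4 is a close relative of Dnajb1, and it rose at 2 weeks too (1.06, adjusted p = 0.00499). Of 5 other nucleotide exchange factors Bag4 rose by 1.11 (adjusted p = 0.00819) and Bag1 fell by 0.59 (adjusted p = 0.0234).

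At 2 weeks the same lists gave calls in both directions, where 47.9% of all genes were called in either direction. The median of all genes was -0.21. Of the HSP70 and HSP110 genes 2 rose and 2 fell (median -0.25), with Hspa12b at -1.55 (adjusted p = 0.0222 in limma), Hspa13 at 0.76 (adjusted p = 0.0173) and Hspa4 at -0.51 (adjusted p = 0.0302). Of the HSP90 list, with a median of -0.28, 1 gene fell, Unc45a at -1.35 (adjusted p = 0.0335). Unc45a ran from 5.50 to 25.8 FPKM in Socs3 cKO mice, with a median of 20.5. Of the J-domain list 2 rose, Dnajb4 and Dnaja2 (0.34, adjusted p = 0.0471), with a median of 0.08. Bag2 fell by 0.92 (adjusted p = 0.00593) and Bag4 rose by 0.79 (adjusted p = 0.00711). For genes of these and the following lists, values without Socs3 cKO replicate 1 or with the GC trend removed are not given. The part of that library in their 2-week differences was not tested.

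Chaperonins, the ring-shaped machines that fold actin and tubulin in the cytosol and other clients in mitochondria, were called in 1 direction at 2 weeks. Of 10 genes 8 rose and none fell. Over all genes 47.9% were called in either direction, and the share called higher alone is not given. The median of the chaperonins was 0.58, against -0.21 over all genes. Among those that rose were Hspe1 (1.01, adjusted p = 0.013 in limma), Tcp1 (0.79, adjusted p = 0.0169) and Cct4 (0.73, adjusted p = 0.00774). None was a DEG. At 10 weeks 1 rose, Cct2 (0.61, adjusted p = 0.0335), and 1 fell, Cct6a (-0.66, adjusted p = 0.0446), around a median of 0.04. Over all genes 28.7% were called higher at 10 weeks, with a median of 0.31. In either direction 4931 of 13105 genes were called at 10 weeks, 3757 of them higher.

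The list of ER chaperones and the unfolded protein response stood beside Hspa5. At 10 weeks 12 of 25 genes rose and 1 fell (median 0.51, against 0.31 over all genes), where 28.7% of all genes were called higher. In either direction 4931 of 13105 genes were called, 3757 of them higher. Of the genes of this list that rose 5 were DEGs, where 12.5% of all genes were higher DEGs. Calr, a calcium-binding chaperone of glycoproteins, rose by 2.42 (adjusted p = 0.00118 in limma), Ern1, the stress sensor IRE1, by 2.29 (adjusted p = 0.00753) and Dnajb11, the co-chaperone of Hspa5, by 1.48 (adjusted p = 0.0102). The wild type mice varied widely here, with Calr at 44.2 ± 29.9 FPKM (SD, n = 3) against a mean of 207 FPKM in Socs3 cKO and Ern1 at 0.620 ± 0.493 FPKM against 3.19 ± 1.26. Ddit3 (CHOP), the death-linked target of ER stress, had a log2 fold change of -0.09 (adjusted p = 0.733), Xbp1 of 0.51 (adjusted p = 0.0348) and Atf4 of 0.43 (adjusted p = 0.0664). At 2 weeks 3 of 25 rose and 6 fell (median -0.23), where 47.9% of all genes were called in either direction. The falls included Syvn1 (-1.98, adjusted p = 0.017 in limma), Serpinh1 (-1.72, adjusted p = 0.00198) and Hyou1 (-1.41, adjusted p = 0.0281). In Socs3 cKO mice the lowest value and the median were 1.54 and 7.87 FPKM for Syvn1 and 2.79 and 10.3 FPKM for Hyou1. Serpinh1 is the collagen chaperone HSP47, and 5 fibroblast markers, all at 1 FPKM or more in every mouse, summed at 2 weeks to 12360 to 14517 FPKM in wild type mice and 4737 to 6676 FPKM in Socs3 cKO. The collagens Col1a1, Col1a2 and Col3a1 carried that sum, whereas the other markers had higher means in Socs3 cKO, Dcn at 838 against 2107 FPKM and Pdgfra at 16.1 against 18.8 FPKM. The part of fibroblast RNA in that fall was not tested, and in bulk RNA fewer cells of a type and less RNA per cell cannot be told apart.

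The other small heat shock proteins, several of which are made in muscle, gave 2 calls at 2 weeks and 3 at 10 weeks. Over all genes 47.9% were called in either direction at 2 weeks (median -0.21), and 28.7% were called higher at 10 weeks (median 0.31). At 10 weeks 4931 of 13105 genes were called in either direction, 3757 of them higher. The 2-week shares called higher or lower alone are not given. At 2 weeks 2 of 7 rose (median 0.40), Hspb3 by 0.999 (adjusted p = 0.0375 in limma) and Hspb6 by 0.95 (adjusted p = 0.00139). At 10 weeks Hspb3 fell by 1.68 (adjusted p = 0.000662), Hspb2 fell by 1.30 (adjusted p = 0.00834), and Hspb8, the partner of Bag3, rose by 0.90 (adjusted p = 0.00327), around a median of -0.60. The 6 skeletal muscle markers, of which 5 or 6 were at 1 FPKM or more in every mouse of a group, summed at 2 weeks to 608 to 922 FPKM in wild type mice and 1428 to 2815 FPKM in Socs3 cKO. At 10 weeks the sum was 669 to 1143 against 334 to 616. It moved the same way as Hspb3 at both ages, and its part in these differences was not tested. Of the 6 markers, Myh4 and Actn3 had higher means in Socs3 cKO at 10 weeks (6.00 to 8.11 and 0.673 to 2.59 FPKM), whereas the means of Ckm, Mylpf, Tnnt3 and Acta1 were lower. At 2 weeks Hspb8 was at 0.16 (adjusted p = 0.548), with both its mean and the muscle sum higher in Socs3 cKO, and at 10 weeks it rose where the sum was lower.

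The heat shock factors themselves gave 1 call, among 3 genes tested at 2 weeks, where 47.9% of all genes were called in either direction. At 2 weeks Hsf1 was at 18.7 ± 0.441 FPKM in wild type mice and 6.94 ± 3.69 in Socs3 cKO (SD, n = 4 each) and fell by 1.63 on the log2 scale (adjusted p = 0.0165 in limma). At 10 weeks it had a log2 fold change of 0.26 (adjusted p = 0.388), and none of 4 heat shock factor genes was called.

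The immediate-early genes, which answer within minutes to stress and growth signals, had a larger median log2 fold change than the chaperones at 10 weeks. Of 21 genes 20 rose and 19 of these were DEGs, with a median log2 fold change of 3.48 against 0.84 for the chaperone set. Over all genes 28.7% were called higher, 12.5% were higher DEGs and the median was 0.31. Nr4a1, a nuclear receptor, rose by 6.33 (SE 0.22, adjusted p = 3.9e-07 in limma), from 3.59 ± 1.03 FPKM (SD, n = 3) to 289.7 ± 40.6 (SD, n = 4), and Fosb, a subunit of AP-1, rose by 5.85 (adjusted p = 8.6e-05). Nr4a3 was listed at 0 in all 3 wild type mice and averaged 10.9 FPKM in Socs3 cKO. At 2 weeks 4 of 20 fell and none rose (median -0.32), where 47.9% of all genes were called in either direction (median -0.21). The share of all genes called lower alone is not given. Among the falls were Egr3 (-2.15, adjusted p = 0.0435), Nr4a2 (-1.50, adjusted p = 0.0114) and Egr2 (-1.42, adjusted p = 0.0158). The lowest Socs3 cKO mouse had Egr3 at 0.830 FPKM, against a group median of 9.95. Members that did not pass the test went both ways. The most positive were Fos at 2.15 (adjusted p = 0.0874), Fosb at 1.39 (adjusted p = 0.255) and Atf3 at 0.94 (adjusted p = 0.178). The most negative were Jun at -0.95 (adjusted p = 0.257), Egr1 at -0.82 (adjusted p = 0.375) and Nr4a1 at -0.59 (adjusted p = 0.398). Fos was spread over 8.38 to 228 FPKM in the 4 Socs3 cKO mice, against 11.9 to 15.6 FPKM in wild type mice. At 10 weeks the calls of both sets were upward only, and the called differences of the chaperone genes ran from 0.64 to 1.53 on the log2 scale.

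**Figure D5:**
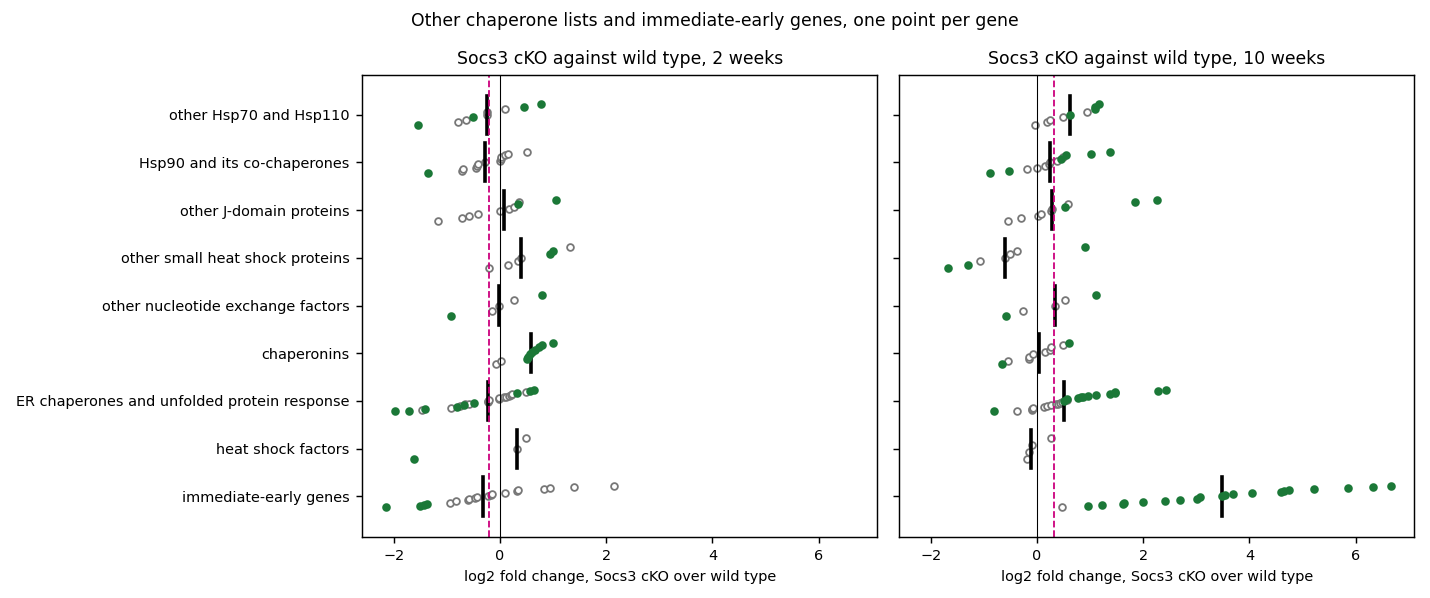
Log2 fold change of each gene of the other chaperone lists and of the immediate-early genes (horizontal axis) at 2 weeks (left) and 10 weeks (right). Filled green points have an adjusted p below 0.05, black bars are the median of a list, and the dashed line is the median of all tested genes. At 10 weeks the median of the immediate-early genes (bottom row, 3.48) lies to the right of those of the chaperone lists, which run from -0.60 to 0.63, although single genes of the lists overlap, and at 2 weeks the chaperonins have a median of 0.58.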

How the data were processed

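Libraries from 15 ears were read as single ends of 50 bases. Reads were aligned by the authors to mm9, with TopHat2 2.1.0 and Cufflinks named in the submitters' processing notes, and deposited 1 FPKM value per gene, normalized for gene length and mapped reads. The authors used edgeR for their own analysis, and only the FPKM values were used here. Groups came from the labels, and each replicate was a separate mouse. In R 4.3.3, limma 3.58.1 with a prior variance that follows the mean level tested log2(FPKM + 0.1) for genes with at least 1 FPKM in at least 3 mice, within each age, or over all 4 groups for age and interaction. Fold changes on this scale understate those of low genes. All tests were 2-sided. The step was tested on simulated data. The 10 genes, the lists and the tests were chosen with earlier results of these data known. Named in each list were up to 3 called genes with the largest change, together with the 5 genes most like Hspa1b and Hspa5. Genes given for context (Hsp90ab1, Hsf1, Ddit3, Xbp1, Atf4) were chosen after their values were seen. So were Fos, Fosb, Atf3, Jun, Egr1 and Nr4a1 at 2 weeks. Unique words of 32 bases were counted in mm9, whose GENCODE annotation held 20533 genes by symbol (97.3%). Alternatives were pseudocounts of 1 and 0.01, no or a stricter filter, quantile normalization, median-of-ratios scaling, the replicate block, a constant prior variance, all 4 groups in one fit, removal of the length and GC trend (a spline with 4 degrees of freedom) and leaving out each mouse. Python 3.11.15, pandas 2.3.3 and matplotlib 3.10.9 were used. Replicate numbers were checked for pairing. The deviations of same-numbered mice from their group means correlated at -0.057 to 0.057 at 2 weeks and at -0.203 to 0.036 at 10 weeks, so the block was an alternative only.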

Additional observations from a re-analysis of the deposited data

Results flagged for a closer look

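The signed genotype difference was more positive at 10 weeks than at 2 weeks, by the test of the interaction in limma, in 5 of the 10 genes, against 34.6% of all genes. It went from -1.31 to 0.67 for Bag3, from -0.73 to 0.55 for Hsph1 and from -0.12 to 1.48 for Dnajb1. Of these only Bag3 was called at both ages. Dnajb1 was not called at 2 weeks (adjusted p = 0.545 in limma), nor Hsph1 at 10 weeks (adjusted p = 0.0712). With the length and GC trend removed these uncalled values changed sign, as given below. The size of the interaction on the log2 scale was 1.97 for Bag3, 1.60 for Dnajb1, 1.28 for Hsph1, 1.04 for Hspa8 and 0.94 for Hspa5. For Bag3 every Socs3 cKO mouse was below every wild type mouse at 2 weeks and above every one at 10 weeks.

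Each gene was checked in each group of 4 mice for 1 mouse that stood apart, by its gap to the nearest mouse over the range of the group. This was so in 3 of 30 checks. Chance flags about 1 in 20 independent checks, but the genes share the same mice, so these rates are not comparable. Bag3 in Socs3 cKO at 2 weeks had a low mouse (4.91 FPKM in replicate 1, gap over range 0.916), which is the library with the GC slope of -1.20. Hspa8 in the wild type at 2 weeks had a low mouse (473 FPKM in replicate 1, 0.870). Hsp90aa1 in Socs3 cKO at 10 weeks had a high mouse (110.7 FPKM in replicate 4, 0.865).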

How the results depend on the processing

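Depth is unknown, the wild type at 10 weeks has 3 mice, and libraries differ in GC trend by group, so the removal of that trend may also remove real differences. The median-of-ratios scaling shifted the median of all genes at 10 weeks from 0.31 to 0.06.

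Of the 10 genes, the number called at 2 weeks (3 at an adjusted p below 0.05, no DEG) was 6 with the length and GC trend removed, and 1 DEG was found with quantile normalization and with all 4 groups in one fit. Over all genes 6322 of 13037 were called with the trend removed, against 6479 of 13524. DEGs over all genes numbered 2695 with quantile normalization and 3300 in the one fit, against 1951. At 10 weeks there were 2 in place of 4 DEGs with quantile normalization and with median-of-ratios scaling. Over all genes there were 1699 and 1705 DEGs in place of 1957. For age in the wild type (5 called, 2 DEGs) the counts were 2 called and 1 DEG with median-of-ratios scaling, 3 called with quantile normalization, and 3 called and 0 DEGs with the trend removed. Over all genes (7077 called, 3559 DEGs) median-of-ratios scaling gave 6445 called and 3298 DEGs. Quantile normalization gave 7023 called, and removal of the trend 6332 called and 2295 DEGs. For age in Socs3 cKO 1 DEG was left with the trend removed, where DEGs over all genes went from 493 to 733. For the interaction (5 called, 3 DEGs) 3 were called with median-of-ratios scaling, and 2 called and 0 DEGs with the trend removed. Over all genes (6556 called, 3417 DEGs) these settings gave 6221 called, and 5323 called and 2445 DEGs. The cause of these shifts was not tested.

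Signs turned in 21 settings. With the length and GC trend removed, log2 fold changes at 2 weeks were 0.82 for Hspa1a, 0.76 for Hspa1b, 0.434 for Dnajb1 and 0.17 for Hspb1, and at 10 weeks -0.094 for Hsph1 and 0.32 for Hspb1. With age in the wild type they were 0.33 for Bag3, 0.0078 for Dnaja1, 0.074 for Dnajb1, 0.28 for Hsp90aa1 and 0.46 for Hspa1b, and the interactions were -0.19 for Dnaja1 and -0.24 for Hspa1b. With median-of-ratios scaling Dnajb1 at 2 weeks was at 0.089, Hsp90aa1 with age in the wild type at 0.26, and the interactions of Dnaja1 and Hspb1 at -0.028 and -0.11. Quantile normalization gave -0.26 for Hspa8 and -0.27 for Hspa5 at 2 weeks, and 0.13 for Hspa8 and 0.063 for Hspb1 with age in Socs3 cKO.

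When 1 mouse at a time was left out, the counts called ran from 1 (without wild type replicate 3) to 5 (without Socs3 cKO replicate 2) at 2 weeks, where DEGs stayed at 0. At 10 weeks 5 to 9 were called, with 1 DEG (without wild type replicate 3) to 5 DEGs. With age in the wild type the ranges were 3 (without any of the 2-week mice, or without 10-week replicate 3) to 5 called and 1 (without 10-week replicate 3) to 2 DEGs. In Socs3 cKO they were 2 called throughout and 1 DEG (without 10-week replicate 1, 2 or 3) to 2 DEGs. The interaction gave 5 to 6 called and 3 to 6 DEGs, with 6 without Socs3 cKO replicate 1 of 2 weeks and 5 without wild type replicate 2 of 10 weeks. Without Socs3 cKO replicate 1 of 2 weeks signs turned for Hspa1a and Hspa1b at 2 weeks (0.18 and 0.18, with ranges down to -0.77 and -0.66), for Dnaja1, Hspa1a and Hspa8 with age in Socs3 cKO (0.030, -0.0011 and 0.035, with ranges from -0.29 for Dnaja1, to 0.95 for Hspa1a and from -0.24 for Hspa8) and for the interactions of Hsp90aa1 and Hspb1 (0.070 and -0.078, with ranges from -0.34 and to 0.57). Hspb1 with age in Socs3 cKO ran from -0.48 to 0.17 and was at 0.06, 0.09, 0.17 and 0.05 without Socs3 cKO replicate 4 of 10 weeks and replicates 2, 3 and 4 of 2 weeks.

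With the replicate block, 2 genes were called at 2 weeks and 7 at 10 weeks, with 0 and 3 DEGs. Over all genes 5444 and 4798 were called, with 751 and 1899 DEGs. The block ended the calls of Hsp90aa1 at 2 weeks (0.76, adjusted p = 0.0597 in limma), of Hsp90aa1 at 10 weeks (0.51, adjusted p = 0.0761) and of Dnaja1 with age in the wild type (-0.55, adjusted p = 0.0699), and Hspa1b at 10 weeks was called (0.79, adjusted p = 0.0362). The mice share only a number.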
